A study of Mus musculus with 6 samples.

Results

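Heme-treated bone marrow–derived macrophages (BMDMs) were compared with control BMDMs for 35 genes of protein folding and quality control in the endoplasmic reticulum (ER). The genes were chosen by symbol, as ER chaperones, sensors of the unfolded protein response (UPR), oxidoreductases and components of ER-associated degradation (ERAD). All 35 were matched to 1 of the 25700 gene identifiers in the count data, all 35 had counts in every library, and all 35 were among the 12433 genes that passed the filter on low counts. Bone marrow was taken from C57BL/6J mice aged 8–10 weeks and grown with M-CSF (100 ng/ml). On day 3 the heme group received 300 μM heme-albumin and the control group albumin alone. RNA was taken on day 7 from 3 heme-treated and 3 control cultures, each of 1 mouse, and sequenced in bulk as stranded libraries. The experiment thus has 1 dose, 1 time point and no other cell type added.

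The ER is where secreted and membrane proteins enter the secretory route through the Sec61 channel, fold with the help of chaperones and form their disulfide bonds. Proteins that fail to fold are drawn back through the ER membrane by the ERAD machinery and destroyed by the proteasome. IRE1, ATF6 and PERK sense an excess of unfolded protein, and their signals raise the transcription of chaperone and ERAD genes through the factors XBP1, ATF6 and ATF4. Macrophages rely on this system for their lysosomal enzymes, surface receptors and secreted factors. Gene counts do not separate the spliced from the unspliced form of Xbp1 mRNA, nor do they measure cleavage of the ATF6 protein or phosphorylation of a sensor.

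The libraries held 27201038 to 32366848 counts in the heme group and 30509099 to 32994595 in the control group. Levels are given as CPM, the count of a gene divided by the scaled size of its library, with TMM normalization, which sets the scale by the bulk of the genes. Macrophage markers were present in every library. Over 8 genes they summed to 36620 to 39840 CPM with heme and 31730 to 37610 CPM in controls. Lyz2 made up most of the sum, with 34150, 32500 and 30990 CPM with heme and 25160, 30240 and 28590 CPM in controls. It neither rose nor fell at the threshold used below. Of the 8 genes, 5 fell, namely Mertk, Fcgr1, Csf1r, Adgre1 and Cd68 (log2 fold changes of heme over control -1.91, -2.01, -0.61, -0.60 and -0.42). The 2 that rose were Itgam and Ptprc (0.42 and 0.58). Markers of B and plasma cells, the second of which carry a large ER, summed over 8 genes to 61.8 to 83.3 CPM with heme and 251 to 306 CPM in controls. Of these, 3 of the 4 that were tested fell, and Mzb1 had no count in any library. Cd79a, Ms4a1 and Jchain had at most 0.179 CPM in any library of either group and were not tested. Ighm, the heavy chain gene of IgM, made up most of the sum, with 40.6, 55.7 and 43.6 CPM with heme and 226, 261 and 234 CPM in controls. Markers of neutrophils and monocytes also moved with the treatment. The 9 neutrophil markers summed to 92.7 to 137 CPM with heme and 6.99 to 11.0 CPM in controls, and all 7 that were tested rose. The 5 monocyte markers summed to 235 to 263 CPM with heme and 37.9 to 41.6 CPM in controls, and 4 rose and 1 fell. The part of these cell types in the results was not tested, and in bulk RNA fewer cells of a type cannot be told apart from less RNA per cell.

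A part of the promoters of these genes share a known sequence. The genes were chosen by symbol, but as genes of the kind that ATF6 and XBP1 raise. A share of their element above that of all promoters was thus likely beforehand, and it is given as a description. The ER stress element (ERSE), at which ATF6 and XBP1 act together with NF-Y, reads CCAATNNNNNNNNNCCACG. A promoter window from 250 bases before to 50 bases after the gene start given by RefSeq (GRCm38.p6), which can differ from the start of the gene span, was at hand for 30 of the 35 genes. Both strands were searched for exact matches, and for a gene with several windows all were searched. An ERSE lay in the window of 10 of the 30 genes (33.3%), against 39 of all 32851 windows (0.119%) and 37 of all 27025 genes (0.137%). Hsp90b1 had a pair of them. The related ERSE-II, ATTGGNCCACG, lay in the windows of Herpud1 and Dnajb11, against 0.0365% of all windows and 0.0444% of all genes. Neither of these held an ERSE. The 13 matches are printed because they are the feature that these 12 genes have in common, with the fixed letters in capitals and each read in the direction of the motif.

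Hspa5, -65 to -47: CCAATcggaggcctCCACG
Creld2, -126 to -108: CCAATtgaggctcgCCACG
Syvn1, -44 to -26: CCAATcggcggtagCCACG
Calr, -162 to -144: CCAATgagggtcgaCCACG
Hsp90b1, -212 to -194: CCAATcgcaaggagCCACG
Hsp90b1, -107 to -89: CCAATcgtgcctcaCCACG
Ero1lb, -201 to -183: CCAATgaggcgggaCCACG
Pdia6, -98 to -80: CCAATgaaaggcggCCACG
Derl3, -156 to -138: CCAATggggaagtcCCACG
Dnajc3, -105 to -87: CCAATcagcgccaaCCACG
Canx, -145 to -127: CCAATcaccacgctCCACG
Dnajb11, 8 to 18: ATTGGcCCACG
Herpud1, -52 to -42: ATTGGgCCACG

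Positions count from the gene start, with negative numbers before it. The ERSE matches all lay before the start, between positions -212 and -26, 6 of 11 on the strand of the gene and 5 on the other strand. The shorter core TGACGTG, which ATF6 and XBP1 also bind, lay in the windows of Hspa5, Txndc5 and Txndc11. It lay in 2.01% of all windows and in 2.22% of all genes. The core of the antioxidant response element bound by NRF2, TGACNNNGC, lay in those of 9 of the 30 genes (30%), namely Atf6b, Calr, Ern1, Herpud1, Pdia3, Sdf2l1, Sec61b, Txndc5 and Txndc11, against 12.4% of all windows. In Txndc5 both cores start at the same base. A match is a sequence and not a measured binding site. Atf6, Hyou1, Manf, Derl1 and Sec61a1 had no window and were not searched.

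The full windows of 4 genes are shown with the ERSE in capitals, each read along the strand of its gene, so that the ERSE of Creld2 appears as its reverse complement. Hspa5 (chr2:34771840-34772139, plus strand) and Creld2 (chr15:88819396-88819695, plus strand) carried the largest increases among genes with an ERSE. Dnajc3 (chr14:118937682-118937981, plus strand) and Canx (chr11:50325624-50325923, minus strand) carried the same element and had the changes nearest to 0 among them.

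Hspa5: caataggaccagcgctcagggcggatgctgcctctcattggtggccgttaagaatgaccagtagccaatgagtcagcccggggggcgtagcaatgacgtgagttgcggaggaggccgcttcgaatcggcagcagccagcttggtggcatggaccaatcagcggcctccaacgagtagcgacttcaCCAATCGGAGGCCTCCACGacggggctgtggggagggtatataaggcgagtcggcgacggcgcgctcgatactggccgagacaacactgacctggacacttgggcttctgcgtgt
Creld2: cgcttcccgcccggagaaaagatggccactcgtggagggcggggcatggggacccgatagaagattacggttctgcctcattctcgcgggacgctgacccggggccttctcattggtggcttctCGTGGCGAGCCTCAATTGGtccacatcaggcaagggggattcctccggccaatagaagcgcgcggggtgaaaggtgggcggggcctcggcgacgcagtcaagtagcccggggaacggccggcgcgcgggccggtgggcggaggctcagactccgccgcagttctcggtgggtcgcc
Dnajc3: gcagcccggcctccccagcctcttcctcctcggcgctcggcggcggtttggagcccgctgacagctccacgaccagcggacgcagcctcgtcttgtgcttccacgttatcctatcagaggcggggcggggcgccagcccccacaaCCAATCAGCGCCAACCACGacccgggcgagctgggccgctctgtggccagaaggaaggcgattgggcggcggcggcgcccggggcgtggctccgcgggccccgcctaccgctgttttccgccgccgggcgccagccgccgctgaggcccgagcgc
Canx: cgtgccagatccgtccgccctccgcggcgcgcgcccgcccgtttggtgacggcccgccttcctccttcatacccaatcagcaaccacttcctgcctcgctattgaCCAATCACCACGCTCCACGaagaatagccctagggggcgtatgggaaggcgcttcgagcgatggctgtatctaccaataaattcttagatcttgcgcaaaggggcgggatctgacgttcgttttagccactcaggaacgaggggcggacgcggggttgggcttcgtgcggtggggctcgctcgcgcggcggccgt

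Heme-treated BMDMs carried more mRNA of most ER folding and degradation genes than control BMDMs, but the increases were uneven. Of the 35 genes, 25 rose, none fell (0 at the threshold) and 10 were not called (edgeR's quasi-likelihood test, Benjamini-Hochberg adjusted p under 0.05 over all tested genes). In the same test, 31.7% of all 12433 genes rose, 30.8% fell and 62.5% changed in either direction. The median log2 fold change of heme over control was 0.37 over the 35 genes and 0.0041 over all tested genes. The changes were mostly modest. A called log2 fold change of at least 0.5 was reached by 11 of the 35 (31.4%), against 20.2% of all tested genes, and one of at least 1 by Ero1l, Hyou1 and Edem2. In 26 genes all 3 heme libraries lay above all 3 control libraries, against 34.8% of all tested genes. For a single gene, an exact unpaired permutation test of 3 libraries against 3 cannot give a two-sided p below 0.1. The p-values given here are thus those of the fit across genes.

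The scaling of the libraries bears on this count. The TMM factors were 0.918 to 0.931 in heme and 1.07 to 1.10 in control libraries. When library size alone was used (plain library-size scaling), the median of all tested genes was -0.22. Of all 12433 tested genes, 2579 were higher and 5815 lower under that scaling. Among the 35 genes, 12 were higher, 4 were lower and the median was 0.15. The 12 were Ero1l, Hyou1, Edem2, Dnajb9, Manf, Hspa5, Creld2, Derl2, Atf6, P4hb, Syvn1 and Sec61a1, and each of these also rose under every other alternative run. The 4 that fell were Atf6b, Canx, Edem1 and Edem3. The other 13 calls were lost under plain library-size scaling. With RLE factors, upper-quartile factors, library sizes without the 20 most abundant genes and DESeq2, 25 of the 35 genes were higher and none of the 35 lost its call. RLE factors, upper-quartile factors and DESeq2 put the median of all tested genes at -0.00014, -0.02 and 0.00022, close to the 0.0041 with TMM. They share its premise that the bulk of the genes keeps its level. These runs thus cannot decide between TMM and plain library size.

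The control libraries differed in the level of these genes more than the heme libraries did. Control library 1 was the highest of its group for 24 of the 35 genes (68.6%), against 37.7% of all tested genes, and control library 2 was the lowest for 29 (82.9%), against 36.4%. The deviation of control library 1 from the group mean was largest for Pdia6 (0.41 on a log2 scale), Hyou1 (0.34), Sdf2l1 (0.33) and Calr (0.28). The summed level of the 35 genes, with TMM, was 7613, 7965 and 7772 CPM in the heme libraries and 6509, 5451 and 5784 CPM in the control libraries. As a plain share of all counts it was 0.70%, 0.74% and 0.72% with heme and 0.71%, 0.58% and 0.62% in controls. By this measure control library 1 lay above heme library 1, so the gap between the groups depended on the scaling. Without control library 1, 27 of the genes rose, and without control library 2, 25 rose and 1 fell.

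**Figure D1:**
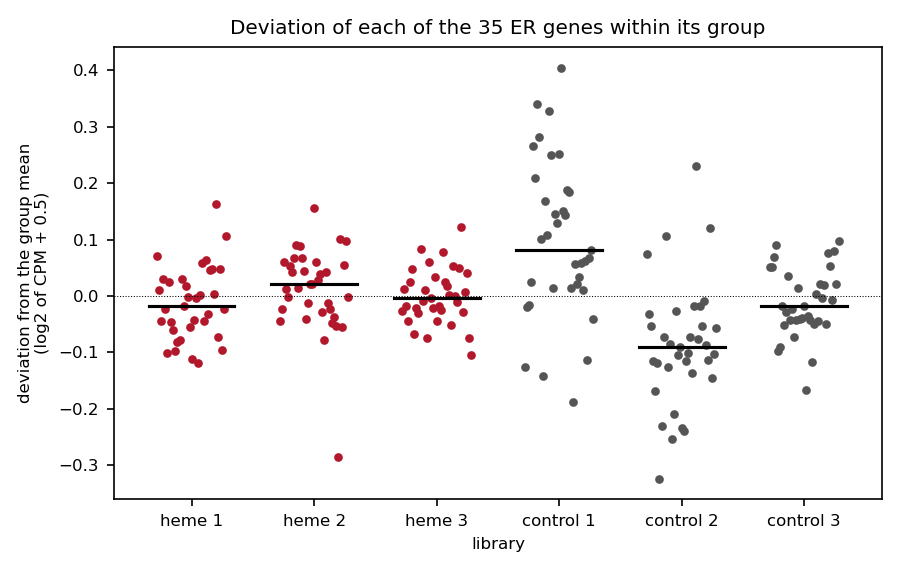
Deviation of each of the 35 ER genes from its group mean, in log2 of CPM + 0.5, by library; points are genes and black lines medians. The control libraries spread more widely than the heme libraries, and control 1 lies mostly above and control 2 mostly below 0.

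Of the genes of the UPR sensors and their transcription factors, Atf6 and Ern1 rose, and Xbp1 and Atf6b did not pass the test. Atf6 encodes a membrane-bound transcription factor that is released by cleavage in the Golgi (GRCm38 chr1:170704674-170867771). It had 225, 241 and 229 CPM in heme-treated BMDMs and 152, 148 and 161 CPM in control BMDMs. The groups were far apart (log2 fold change 0.59, standard error 0.06, adjusted p = 3.12e-05). Ern1, the gene of the kinase and RNase IRE1 (chr11:106394650-106487852), had 75.8, 70.0 and 70.8 CPM with heme and 55.3, 63.6 and 62.6 CPM in controls. The groups did not overlap, but the increase was small (0.26, standard error 0.07, adjusted p = 0.0128), and it did not pass without heme library 1 (0.22, adjusted p = 0.0575) or under plain library-size scaling (adjusted p = 0.675).

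Xbp1, whose mRNA is the splicing substrate of IRE1 (chr11:5520659-5525893), had 168, 164 and 168 CPM with heme and 154, 152 and 161 CPM in controls. All heme libraries were above all control libraries, but by too little to pass the test (log2 fold change 0.10, standard error 0.06, adjusted p = 0.172). Atf6b, the gene of the paralog of ATF6 (chr17:34647146-34655074), had 61.3, 60.5 and 58.2 CPM with heme and 65.0, 59.0 and 68.1 CPM in controls. The groups overlapped (-0.09, standard error 0.07, adjusted p = 0.267). Under plain library-size scaling Atf6b fell (-0.32, adjusted p = 0.00337).

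**Figure D2:**
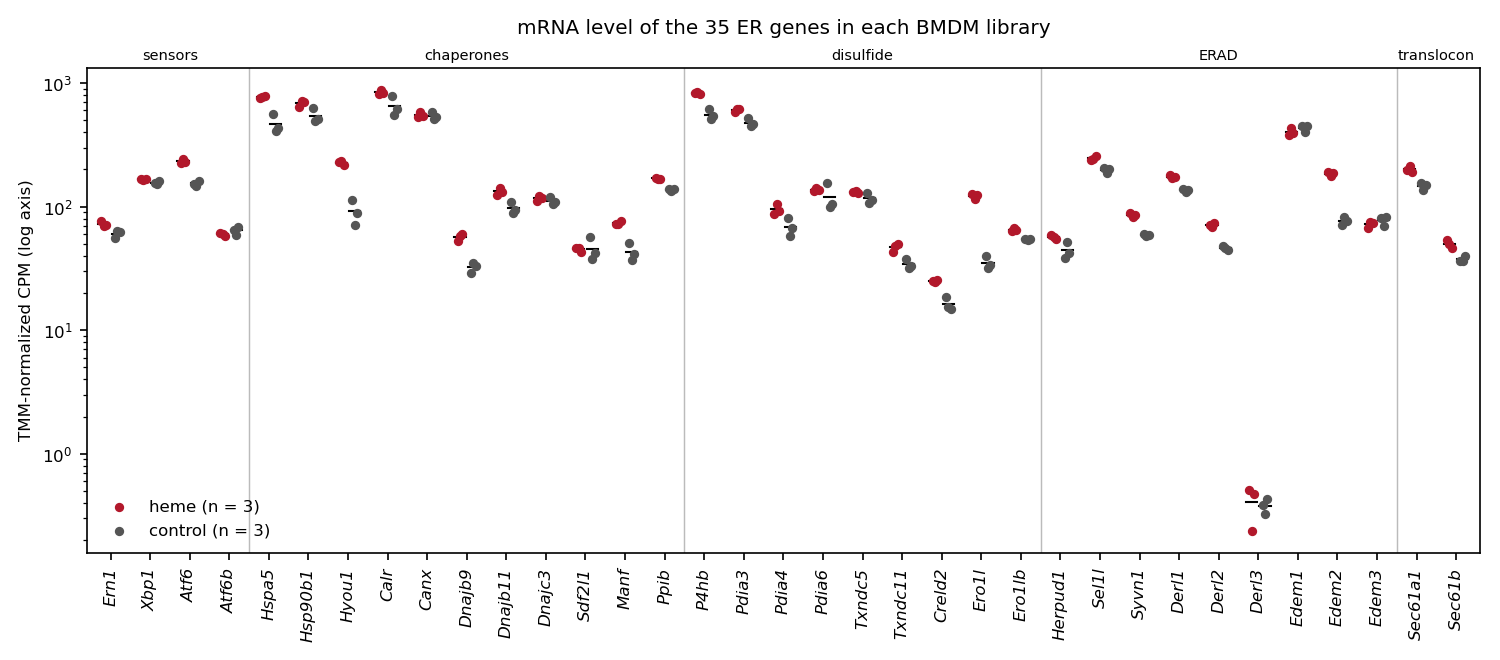
TMM-normalized CPM (log axis) of the 35 ER genes in 3 heme-treated and 3 control BMDM libraries, by role. Points are libraries and black lines group means; Ero1l, Hyou1 and Edem2 show the widest gaps between the groups, and Derl3 lies under 1 CPM in every library.

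Among the 11 genes of chaperones and co-chaperones, 8 rose (72.7%, against 31.7% of all tested genes) and 3 were not called. On the log2 scale, the median over these 11 genes was 0.37. The largest increases were those of Hyou1, Dnajb9, Manf and Hspa5, the gene of BiP, the Hsp70 of the ER. Hyou1, which encodes the exchange factor GRP170 that reloads BiP with ATP (chr9:44379490-44392369), had 230, 233 and 216 CPM with heme and 114, 71.5 and 88.5 CPM in controls. Every heme library lay far above control library 1, the highest of its group (1.31, standard error 0.14, adjusted p = 3.35e-05). Hspa5 (chr2:34771970-34777547), had 757, 769 and 782 CPM with heme and 557, 412 and 433 CPM in controls. The heme libraries lay close together and well above the controls (0.72, standard error 0.11, adjusted p = 0.000301).

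Dnajb9 and Manf, whose products act on BiP, rose too. Dnajb9 encodes the co-chaperone ERdj4, which also restrains IRE1 (chr12:44205559-44210326), and had 53.1, 57.4 and 60.3 CPM with heme and 29.1, 34.6 and 32.9 CPM in controls. The increase (log2 fold change 0.82, standard error 0.08, adjusted p = 2.27e-05) passed the test without any 1 library. Manf, the gene of a secreted ER protein that binds BiP (chr9:106838312-106891979), had 72.9, 71.7 and 76.9 CPM with heme and 50.9, 36.9 and 41.5 CPM in controls. The groups did not overlap (0.78, standard error 0.11, adjusted p = 0.00018).

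The other abundant chaperone genes had smaller changes. Calr, the gene of the lectin chaperone calreticulin, had 812, 878 and 826 CPM with heme and 778, 545 and 617 CPM in controls. Control library 1 came close to the heme libraries (log2 fold change 0.37, standard error 0.12, adjusted p = 0.0196). Hsp90b1, which encodes the ER Hsp90 GRP94, had 636, 708 and 706 CPM with heme and 623, 496 and 506 CPM in controls. Here too control library 1 lay just under the lowest heme library (0.33, standard error 0.10, adjusted p = 0.0132). Without control library 3 or heme library 3 neither gene passed the test, and Calr also did not without heme library 2, with adjusted p-values from 0.0514 to 0.0706. The log2 fold changes in these fits stayed near those with all libraries, at 0.34 to 0.39 for Calr and at 0.29 and 0.31 for Hsp90b1. Canx, the gene of the membrane-bound relative of calreticulin, had 526, 584 and 537 CPM with heme and 579, 514 and 530 CPM in controls. The groups overlapped (0.02, standard error 0.07, adjusted p = 0.82). Calr and Canx, whose proteins bind the same class of glycoproteins, thus gave different calls, but the difference between their changes was not tested.

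Of the other chaperone genes, Dnajb11 (ERdj3, a co-chaperone that hands clients to BiP) rose with a log2 fold change of 0.45 and Ppib (cyclophilin B, a prolyl isomerase) with one of 0.31. Under plain library-size scaling, Calr, Hsp90b1, Dnajb11 and Ppib did not pass the test (adjusted p = 0.307, 0.364, 0.0523 and 0.188). Ppib shares 25.0% of its exon bases with Snx22 on the opposite strand, which held 17416 counts over all libraries against 27876 for Ppib, and the strand setting of the counting is not given. Dnajc3, the gene of the co-chaperone P58IPK, had 110, 122 and 117 CPM with heme and 120, 105 and 110 CPM in controls (0.06, adjusted p = 0.454). Sdf2l1, the gene of a partner of ERdj3, had 46.0, 46.4 and 42.7 CPM with heme and 56.2, 37.4 and 42.4 CPM in controls. Its control libraries spread more widely than the distance between the groups (-0.01, standard error 0.13, adjusted p = 0.949). Without control library 1 its log2 fold change was 0.17 (adjusted p = 0.0866).

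**Figure D3:**
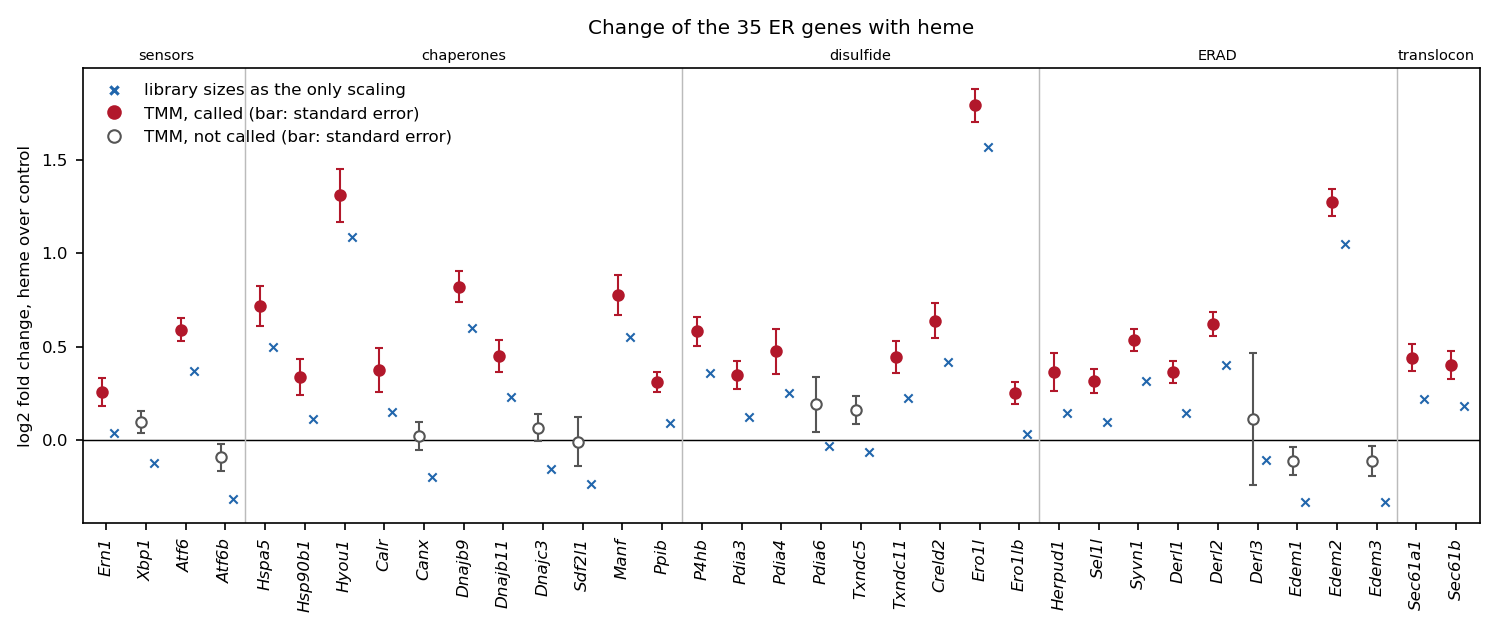
Log2 fold change of heme over control for the 35 ER genes, by role. Circles are edgeR's estimates with TMM and bars their standard errors (filled, called), and crosses are the estimates under plain library-size scaling; filled circles run from 0.25 for Ero1lb to 1.79 for Ero1l, and every cross lies below its circle.

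Of the 9 genes of disulfide formation and exchange, 7 rose (77.8%, against 31.7% of all tested genes) and 2 were not called. Their median log2 fold change was 0.45. Ero1l encodes the oxidase ERO1α, which passes electrons from protein disulfide isomerases to oxygen and yields hydrogen peroxide (chr14:45283087-45318771). It had 127, 115 and 123 CPM in heme-treated BMDMs and 39.9, 31.8 and 33.8 CPM in control BMDMs. This was the largest change among the 35 genes, 3.47-fold (log2 fold change 1.79, standard error 0.09, adjusted p = 2.23e-07). The paralog Ero1lb, the gene of ERO1β, had 62.9, 66.9 and 64.9 CPM with heme and 55.1, 53.8 and 54.7 CPM in controls. The groups did not overlap, but the change was small (0.25, standard error 0.06, adjusted p = 0.00438). Per kilobase of exon, Ero1l had 23.1 CPM with heme and 6.65 CPM in controls, and Ero1lb had 9.76 CPM with heme and 8.19 CPM in controls. The order of the paralogs thus differed between the groups.

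P4hb, the gene of the founding protein disulfide isomerase PDI (chr11:120560298-120573253), had 828, 841 and 817 CPM with heme and 611, 513 and 537 CPM in controls. The heme libraries lay close together and all above the controls (log2 fold change 0.58, standard error 0.08, adjusted p = 0.000144). Creld2, which encodes an ER stress–inducible protein with isomerase activity (chr15:88819646-88826683), had 25.2, 24.7 and 25.6 CPM with heme and 18.4, 15.3 and 14.8 CPM in controls. The level was low but the groups were apart (0.64, standard error 0.09, adjusted p = 0.000267). Pdia3 is the gene of ERp57, the isomerase that works with calreticulin and calnexin. It had 580, 611 and 617 CPM with heme and 518, 445 and 461 CPM in controls. The increase was 1.27-fold (0.35, standard error 0.07, adjusted p = 0.00287).

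The remaining isomerase genes split. Pdia4 (ERp72) rose with a log2 fold change of 0.48 and Txndc11, which encodes an ER thioredoxin-like protein known from human cells to pair with EDEM2, with one of 0.45. Pdia6 (P5) had 133, 142 and 135 CPM with heme and 156, 99.4 and 105 CPM in controls. Control library 1 exceeded every heme library (0.19, standard error 0.15, adjusted p = 0.29), and without it Pdia6 rose (0.42, adjusted p = 0.000267). Txndc5 (ERp46) had 130, 133 and 128 CPM with heme and 129, 108 and 114 CPM in controls (0.16, adjusted p = 0.0954), and it also rose without control library 1 (0.23, adjusted p = 0.00821). Under plain library-size scaling, Pdia3, Pdia4, Txndc11 and Ero1lb did not pass the test (adjusted p = 0.203, 0.107, 0.0563 and 0.684).

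Of the 9 ERAD genes, 6 rose (66.7%, against 31.7% of all tested genes) and 3 were not called. Their median log2 fold change was 0.36. The EDEM family trims mannose from the glycans of misfolded proteins and marks them for removal, and of its 3 genes Edem2 was called. Edem2, whose product makes the first cut in human cells (chr2:155701677-155729475), had 191, 178 and 186 CPM with heme and 70.4, 83.0 and 75.9 CPM in controls. It was the third largest change among the 35 genes, 2.42-fold (log2 fold change 1.27, standard error 0.07, adjusted p = 5.54e-07). Edem1 had 380, 429 and 392 CPM with heme and 452, 400 and 449 CPM in controls, and Edem3 had 67.3, 74.7 and 74.0 CPM with heme and 81.4, 70.2 and 82.2 CPM in controls. Both overlapped between the groups and both had a log2 fold change of -0.11 (adjusted p = 0.218 and 0.238). Edem3 fell without control library 2 (-0.19, adjusted p = 0.0365), and both fell under plain library-size scaling (-0.34 each, adjusted p = 0.00446 and 0.00589). Per kilobase of exon, Edem1 was the most abundant of the family in both groups, with 62.1 CPM in heme-treated and 67.2 CPM in control BMDMs, while Edem2 had 53.3 CPM with heme and 22.1 CPM in controls.

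The genes of the membrane complex that carries proteins out of the ER rose modestly. Syvn1, the gene of the ubiquitin ligase HRD1 (chr19:6046576-6053712), had 88.3, 82.7 and 85.5 CPM with heme and 59.8, 58.2 and 58.8 CPM in controls. The libraries of each group lay close together (log2 fold change 0.54, standard error 0.06, adjusted p = 3.83e-05). Derl2, which encodes a derlin that helps form the exit path (chr11:71007164-71019841), had 71.4, 68.6 and 73.7 CPM with heme and 48.2, 46.0 and 44.7 CPM in controls. It rose too (0.62, standard error 0.06, adjusted p = 2.32e-05). Derl1, its paralog, had a log2 fold change of 0.36, Sel1l, the adaptor of HRD1, one of 0.32 and Herpud1, a scaffold of the complex, one of 0.37. Under plain library-size scaling these 3 did not pass the test (adjusted p = 0.0635, 0.24 and 0.211). Derl3, a derlin gene of professional secretory cells, had 0.505, 0.237 and 0.477 CPM with heme and 0.387, 0.328 and 0.428 CPM in controls. At this level a difference could not be seen (0.11, standard error 0.36, adjusted p = 0.801).

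Of the Sec61 channel, Sec61a1 and Sec61b rose. Sec61a1, which encodes the pore, had 196, 214 and 189 CPM with heme and 156, 137 and 149 CPM in controls. The groups did not overlap (log2 fold change 0.44, standard error 0.07, adjusted p = 0.000575). Sec61b, the gene of a small subunit, had 53.2, 49.3 and 45.9 CPM with heme and 36.4, 36.0 and 40.1 CPM in controls. Its change was similar in size (0.40, adjusted p = 0.00144) but did not pass under plain library-size scaling (adjusted p = 0.0591). Among the further genes, Sec61g, the gene of the other small subunit, rose (0.47, adjusted p = 0.000864), and Sec61a2, a paralog of the pore gene at a low level, had 5.52, 4.62 and 4.55 CPM with heme and 4.01, 5.73 and 4.49 CPM in controls (0.05, adjusted p = 0.806).

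Per kilobase of exon, the order of the most abundant genes was kept in part. Calr, P4hb and Pdia3 had the highest levels, in this order, in both groups, with 291, 290 and 192 CPM per kilobase with heme and 225, 193 and 151 in controls. Calr and P4hb did not differ beyond the spread of their libraries in heme-treated BMDMs. Hspa5 had 182 CPM per kilobase with heme and 110 in controls, where Hsp90b1 (170 with heme, 134 in controls) and Canx (117 with heme, 115 in controls) ranked above it.

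Genes with and without an ERSE in the window had overlapping ranges of change. Of the 12 genes with an ERSE or ERSE-II, 8 rose and 4 were not called, with a median log2 fold change of 0.35 and a range of 0.02 to 0.72. Of the 18 with a window that held neither, 12 rose and 6 did not pass, with a median of 0.33 and a range of -0.11 to 1.79. Of all tested genes, with or without an element, 31.7% rose. For the ERSE alone, 6 of the 10 genes with it rose (median 0.29), against 14 of the 20 without it (median 0.36). Hspa5, Creld2 and Syvn1 had the largest increases among those with the element, and Canx, Dnajc3, Derl3 and Pdia6 carried it without passing the test. Ero1l (1.79) and Edem2 (1.27) had neither element. Hyou1 was among the 5 genes with no window, which all rose, with a median of 0.59. The 9 genes with the antioxidant response element core had a median of 0.35, and the 21 without it one of 0.33. These are descriptions of a fixed window, and enhancers farther away were not searched.

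**Figure D4:**
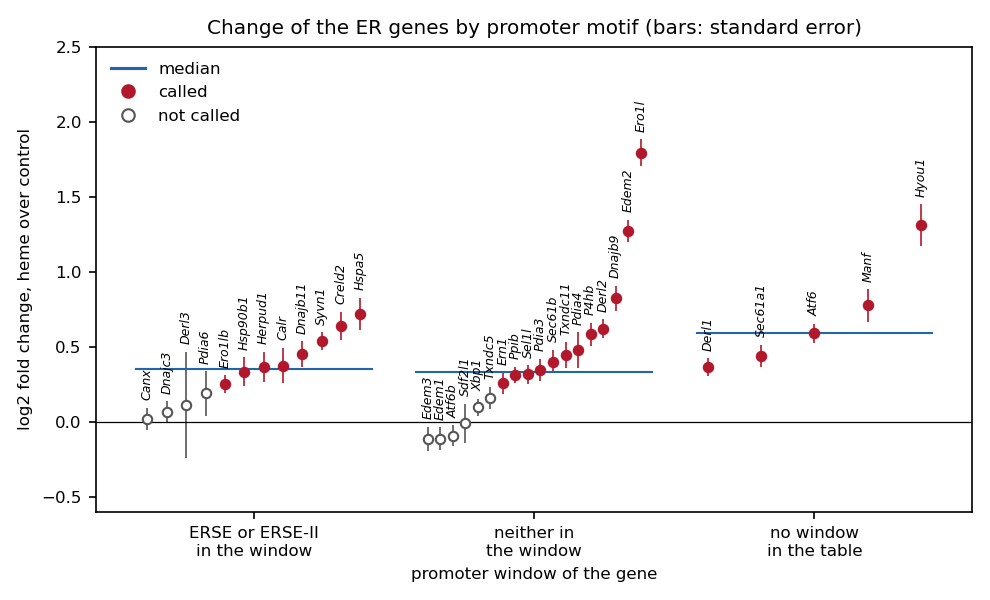
Log2 fold change of heme over control (circles; bars are standard errors) for ER genes with an ERSE or ERSE-II in the promoter window, with neither, and with no window in the table; filled circles are called and blue lines are medians. The medians of the first and second class, 0.35 and 0.33, lie close together, and the ranges overlap.

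Genes of the PERK arm of the UPR, other than those above, had larger changes. Of 8 genes, 7 rose (87.5%, against 31.7% of all tested genes). The sensor gene Eif2ak3 itself did not pass the test (log2 fold change -0.17, adjusted p = 0.0941), although its 3 heme libraries lay below all controls. It fell under plain library-size scaling (-0.39, adjusted p = 0.00153). The median log2 fold change of the 8 genes was 1.10, against 0.37 for the 35 genes. Chac1, which encodes a glutathione-degrading enzyme and is a known ATF4 target, had 20.4, 17.2 and 18.7 CPM with heme and 1.44, 0.835 and 1.28 CPM in controls. Trib3, the gene of a pseudokinase downstream of ATF4, had 40.3, 35.1 and 37.1 CPM with heme and 4.12, 3.16 and 3.82 CPM in controls. These were changes of 3.98 and 3.34 on the log2 scale, beyond that of any of the 35 genes. Ddit3, the gene of CHOP, rose (1.39) and so did Atf4 (1.22), both also under plain library-size scaling. ATF4 is also made in response to kinases other than PERK, so these mRNA levels do not tell the branches apart.

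Among 129 further genes of ER protein handling in 8 lists, the PERK arm included, 123 were tested. Of these, 62 rose (50.4%, against 31.7% of all tested genes), 19 fell (15.4%, against 30.8%) and 42 were not called. The median log2 fold change of the 123 genes was 0.20. Under plain library-size scaling, 43 were higher and 36 lower, against 2579 higher and 5815 lower of all 12433 tested genes. The list of signal peptide, translocon and glycosylation machinery had 22 of 32 genes higher (68.8%) and 1 lower (3.12%), with a median of 0.34. In this list 12 were higher and 3 lower under plain library-size scaling. Sec11c, a signal peptidase subunit gene, had a log2 fold change of 0.85, Srprb, the gene of the beta subunit of the signal recognition particle receptor, one of 0.83, and Dad1 and Stt3a, genes of the oligosaccharyltransferase, ones of 0.78 and 0.65. Magt1, an oligosaccharyltransferase-linked gene, was the one called lower, with groups that overlapped (-0.31, adjusted p = 0.049), and it was not called under 9 of 15 alternatives. Without control library 1 its log2 fold change was -0.16 (adjusted p = 0.11).

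Of 23 other ERAD genes, 13 rose (56.5%, against 31.7% of all tested genes) and 3 fell (13%, against 30.8%), with a median of 0.26. Under plain library-size scaling 10 were higher and 7 lower. Vcp, the gene of the ATPase p97 that pulls proteins out of the membrane, had 628, 641 and 632 CPM with heme and 386, 336 and 358 CPM in controls (log2 fold change 0.82, standard error 0.07, adjusted p = 7.22e-06). Ubxn4, which encodes a membrane anchor of p97, rose (0.81), and Svip, the gene of a small inhibitor of ERAD, rose too (0.97). Erlin2, an ER lipid raft protein gene, fell (-0.68), as did Man1b1 (-0.34) and Rnf5 (-0.27), genes of a mannosidase and of a ubiquitin ligase, the call of Rnf5 being lost without heme library 3.

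Of 19 tested genes of other ER chaperones and folding enzymes, 6 rose (31.6%) and 4 fell, close to the 31.7% of all tested genes that rose, and under plain library-size scaling 5 were higher and 7 lower. Lman1, the gene of the cargo receptor ERGIC-53, rose by 1.04 on the log2 scale, Hspa13, an Hsp70 family gene, by 0.79 and Fkbp11, a prolyl isomerase gene at low level, by 1.98. The isomerase genes Ppic, Fkbp7 and Fkbp9 fell (-0.96, -0.73 and -0.71). Ppic and Fkbp7 were at low levels, with means of 2.33 and 1.21 CPM with heme and 4.53 and 2.00 CPM in controls. Of 15 tested genes of thiol oxidoreductases and their relatives outside the 35, 5 rose and 5 fell (33.3% each, near the shares of all tested genes). Their median was -0.04, and under plain library-size scaling 3 were higher and 9 lower. Erp44, whose product retains ERO1α in the ER, rose (0.72), and so did Qsox1 (0.57) and Pdia5 (0.68). Pdia5 was at a low level, with means of 3.66 CPM with heme and 2.28 CPM in controls. Erp29 (-0.66), Tmx4 (-0.43) and Prdx4 (-0.35), the gene of the peroxiredoxin that uses hydrogen peroxide in the ER, fell. Of 11 tested UPR regulators, 4 rose (36.4%, also near that share) and 1 fell. Wfs1, the gene of the ER membrane protein wolframin, rose most (2.14), followed by the transcription factor genes Creb3l1 (1.20) and Creb3 (0.46), while Mbtps1, the gene of the protease that first cuts ATF6, fell (-0.32).

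**Figure D5:**
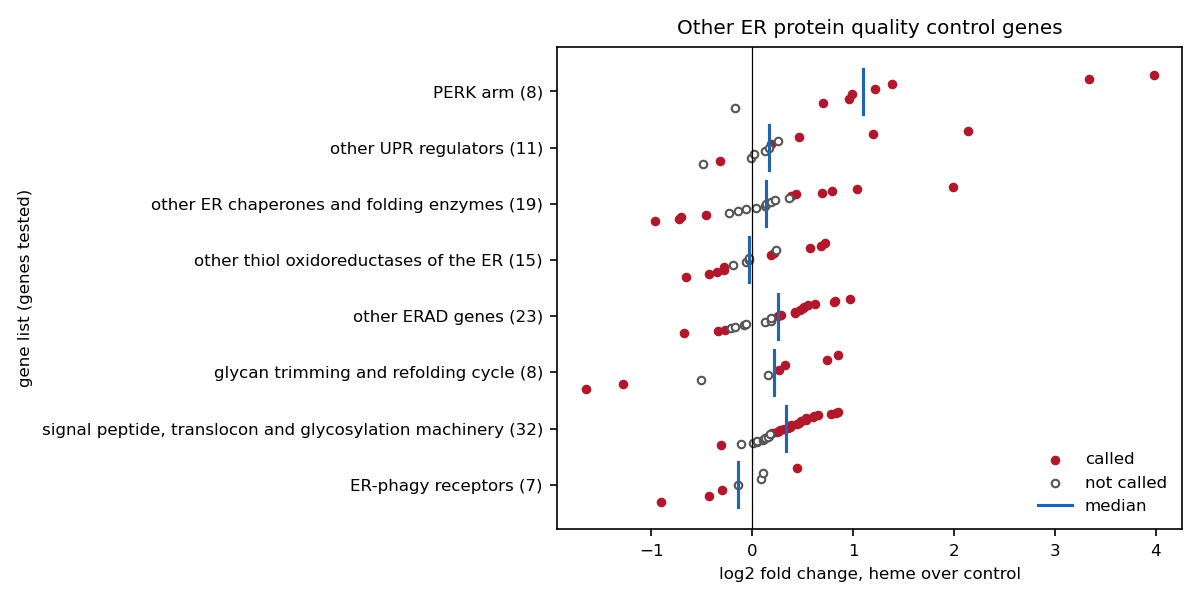
Log2 fold change of heme over control for 123 further genes of ER protein handling, in 8 lists with the number tested in parentheses. Filled circles are called, open circles are not, and blue lines are medians; the PERK arm has the highest median (1.10) and the ER-phagy receptors the lowest (-0.14).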

How the data were processed

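Bulk RNA-Seq was run on BMDM cultures, 3 with heme and 3 controls. What the authors deposited is raw counts of reads for each Ensembl gene and library, made per the labels with STAR 2.7.0 and featureCounts on GRCm38.p5. The sources used here give neither the annotation release nor the strand setting. Symbols, positions and exon lengths came from GENCODE M21 (GRCm38), and 113 identifiers had no symbol. Of the 35 genes, 12 share exon bases with another annotated gene, under 12% of their length except in Ppib.

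edgeR 4.0.16 in R 4.3.3 (filterByExpr with a minimum count of 10, TMM, quasi-likelihood test with condition as the only term) tested 12433 genes, with Benjamini-Hochberg adjustment over all of them and a threshold of 0.05. The procedure was run on simulated counts with 200 changed genes, as many higher as lower. This simulation held far fewer changes than the data and cannot test the choice of scaling. Alternatives were other scalings, DESeq2 1.42.0, limma-voom (limma 3.58.1), other filters, each library left out and the replicate number as a block. The labels do not say whether heme and control libraries of equal number come from the same mouse. Such libraries did not deviate together (correlations -0.0998, -0.142 and -0.0683), and the main test is unpaired. P-values measure the spread between 3 cultures a group, each of 1 mouse.

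All 35 genes are named. Values in every library are given for genes called with a log2 fold change of at least 0.5, for sensor genes and for the most abundant per kilobase, and for others chosen after their values were seen. From each further list, at most 4 called genes that changed most and 2 that went the other way are named, and Eif2ak3, Sec61g, Sec61a2 and Ighm were added after their values were seen. Genes, lists and motifs were chosen with earlier results of these data known. Protein sequences were not used here, and 1 marker gene of B cells is not reported here.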

Additional observations from a re-analysis of the deposited data

How the results depend on the processing

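Scaling had the largest effect. With library size alone, 16 of the 35 genes were called (12 higher and 4 lower, median log2 fold change 0.15), 2579 of all tested genes were higher and 5815 lower, and 36 further pathway genes were lower. The sign turned for genes that were not called under TMM, namely Xbp1 (-0.13), Canx (-0.20), Dnajc3 (-0.16), Pdia6 (-0.035), Txndc5 (-0.064) and Derl3 (-0.11). The median of the 35 was 0.34 with upper-quartile factors and 0.30 with library sizes without the 20 most abundant genes. Canx turned under both (-0.0041 and -0.046) and Dnajc3 under the second (-0.0019). Sdf2l1 was at 0.0087 with limma-voom and 0.0082 with the replicate block. The replicate block called 25 of the 35 genes, and it changed no call among them. When each library was left out in turn, 23 to 27 of the 35 genes were called higher and 0 to 1 lower, and their median ran from 0.33 to 0.42. In these fits Canx ran from -0.025 to 0.067, Sdf2l1 from -0.14 to 0.17 and Derl3 from -0.077 to 0.37, none of them called. Ern1, Calr and Hsp90b1 lost their calls in 1 to 3 of these fits, with log2 fold changes of 0.22 to 0.39.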

Other observations

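The lists of glycan trimming and of ER-phagy are part of the 129 further genes counted above, and their genes have not been described. Of 8 genes of the glycan trimming and refolding cycle, 4 rose (50%, against 31.7% of all tested genes) and 2 fell. Man1a and Man1c1, genes of Golgi mannosidases, fell the most. Man1a had 64.1, 65.0 and 63.0 CPM in heme-treated BMDMs and 218, 181 and 203 CPM in control BMDMs, and Man1c1 had 123, 127 and 120 CPM with heme and 290, 319 and 293 CPM in controls (log2 fold changes -1.65 and -1.29, adjusted p = 1.43e-07 and 2.21e-07 in edgeR's test). Man1a2, a paralog, rose (0.74), as did Prkcsh, the gene of the glucosidase II beta subunit (0.85). Uggt1, which encodes the sensor that sends misfolded glycoproteins back to calnexin, and the glucosidase gene Mogs rose slightly (0.26 and 0.33). Both calls were lost under plain library-size scaling (adjusted p = 0.697 and 0.522), and that of Mogs under 9 of 15 alternatives in all. The mannosidase genes of this family thus went in both directions.

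Of 7 genes of ER-phagy receptors, which deliver ER fragments to the lysosome, 3 fell (42.9%, against 30.8% of all tested genes) and 1 rose. Retreg1, the gene of FAM134B, had 41.3, 41.5 and 40.4 CPM with heme and 77.1, 76.6 and 76.9 CPM in controls, with almost no spread in either group (log2 fold change -0.90, standard error 0.06, adjusted p = 9.88e-07). Retreg3 (-0.43) and Atl3 (-0.30) fell as well, while Tex264, another receptor gene, rose (0.45).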
